A study of Mus musculus with 24 samples.

Results

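The genes of MHC class II antigen presentation described here are H2-Aa, H2-Ab1, H2-Eb1, Cd74, H2-DMa, H2-DMb1, H2-DMb2, H2-Oa and H2-Ob. They were chosen by name alone, as every array probe whose gene name in the scanner output equals a listed member, which gave 9 of 21597 named genes and 15 of 41174 probes. All 9 genes were among the 17345 genes tested, and all 15 probes were among the 30718 probes tested. RNA from primary cells of C57BL/6 mice was hybridised to 2-colour Agilent expression arrays. Elicited peritoneal macrophages (EPM) were taken after an injection of thioglycollate and plated, bone marrow-derived macrophages (BMDM) were grown from marrow with L-cell conditioned medium as the source of M-CSF, and resting splenic B cells were what remained after cells bearing CD43 or CD11b had been taken out with magnetic beads. Kdo2 lipid A (KLA), a lipid A with Kdo sugars from the outer membrane of Gram-negative bacteria and a ligand of Toll-like receptor 4, was given for 1 h or 12 h. Each cell type had 4 conditions: an early control, KLA for 1 h, a 12 h control and KLA for 12 h. The early control was labelled as untreated in EPM and in B cells and as the solvent DMSO for 1 h in BMDM, so the 1 h comparison lacked a solvent control in EPM and B cells. The 12 h control was DMSO in all 3 cell types.

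Each of the 12 conditions was 1 array, whose Cy5 and Cy3 channels each held RNA of a separate biological replicate, so n = 2 per condition and 24 channels in all. A condition and its array therefore cannot be told apart, and the 4 arrays of a cell type shared a slide, so cell type and slide cannot be told apart either. Between 57.4% and 65.0% of probes were well above background in a channel, and no spot was saturated. Levels are normalized log2 intensities. The probe that stood highest over all channels represents its gene, and a level is not compared between genes because probes differ in brightness. A called difference is one with a Benjamini-Hochberg adjusted p under 0.05 from limma over all 17345 genes.

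MHC class II molecules carry peptides from endosomes to the surface of antigen-presenting cells, where CD4+ T cells read them. An α and a β chain form each heterodimer (H2-Aa with H2-Ab1 for I-A, while H2-Eb1 encodes the β chain of I-E). Cd74, the invariant chain, occupies the groove and directs the complex to endosomes. H2-DM, made of the product of H2-DMa with that of H2-DMb1 or H2-DMb2, exchanges the remaining invariant chain fragment for peptide, and H2-DO, made of the products of H2-Oa and H2-Ob, restrains H2-DM. Transcription of these genes depends on the coactivator Ciita, which is recruited by RFX, CREB and NF-Y bound to the X and Y boxes of the promoters. C57BL/6 mice make no I-E protein because their Eα gene is not expressed.

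The promoter sequences are shown because the X and Y boxes are the element these genes are known for. RefSeq promoter windows of the GRCm38.p6 assembly, from 250 bases before to 50 after each start, were found for 7 of the 9 members, and H2-DMa had a pair of windows, which makes 8. Capitals mark the Y box letters ATTGG, the X box core (AAC, any 3 bases, then TGATG) and the cyclic AMP response element TGACGTCA. Each stretch is 65 bases on the gene's own strand and ends 10 bases after the Y box.
H2-Aa, chr17:34287857-34287921, minus strand: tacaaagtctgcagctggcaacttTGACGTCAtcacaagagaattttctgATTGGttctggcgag
H2-Eb1, chr17:34305758-34305822, plus strand: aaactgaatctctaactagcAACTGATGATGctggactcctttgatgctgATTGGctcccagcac
H2-DMb1, chr17:34153080-34153144, plus strand: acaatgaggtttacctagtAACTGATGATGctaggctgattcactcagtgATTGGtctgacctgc
H2-DMb2, chr17:34145109-34145173, plus strand: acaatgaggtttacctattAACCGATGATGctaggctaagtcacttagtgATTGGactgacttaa
H2-DMa, chr17:34125270-34125334, plus strand: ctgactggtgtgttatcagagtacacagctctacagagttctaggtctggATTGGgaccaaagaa
H2-Oa, chr17:34092286-34092350, plus strand: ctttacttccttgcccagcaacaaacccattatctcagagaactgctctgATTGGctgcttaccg
H2-Ob, chr17:34238798-34238862, plus strand: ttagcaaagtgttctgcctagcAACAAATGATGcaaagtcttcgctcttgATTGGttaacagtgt

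The Y box letters lay 43 to 61 bases before the annotated start in H2-Oa, H2-Aa, H2-Ob, H2-Eb1 and H2-DMb1, 90 before it in H2-DMb2 and 198 before it in H2-DMa. The X core letters were found in H2-Eb1, H2-DMb1, H2-DMb2 and H2-Ob, 17 to 20 bases upstream of the Y box, and the cyclic AMP response element in H2-Aa. The Y box letters occurred on either strand in 7 of the 8 member windows and in 37.4% of 32851 mouse promoter windows of the same length. The X core letters occurred in 4 of the 8 and in 0.615% of all windows, and the response element in 1 of the 8 and in 1.79% of all. The X core letters were chosen after these windows had been read, and the response element can overlap the X box region, so the counts are descriptions of letters and not of binding.

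In the B cell part of the data 2 arrays carried labels that went against the authors' own table of normalized values. The columns of that table named for B cells with KLA for 1 h followed the scanner channels of the 12 h control, and the columns named for the 12 h control followed those of KLA for 1 h, with r from 0.974 to 0.982 across probes. Each of these 4 columns correlated at -0.767 to -0.706 with the channels of its own name. The other 20 columns followed the channels of their own names, with r from 0.962 to 0.993. For all these correlations the mean of each probe over the channels of its cell type was first subtracted in both sources. Thus r compares departures from that mean, and a negative r does not refer to the levels themselves. Which labelling holds was not tested, so the changes of the 9 genes and the counts of each list in B cells are given under both, and the scanner labels come first. The untreated B cells and the KLA 12 h B cells were not affected.

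Under basal conditions all 9 class II genes were highest in B cells, and the chains and Cd74 were far higher in EPM than in BMDM. The H2-Ab1 level was 13.23 and 13.25 in the Cy5 and Cy3 channels of untreated EPM, 8.05 and 8.11 in BMDM controls, and 17.19 and 16.99 in untreated B cells. H2-Ab1, the I-A β chain, was thus 35.8-fold higher in EPM than in BMDM with the probe used (difference 5.16 on the log2 scale, SE 0.08, limma adjusted p = 3.71e-19). The further H2-Ab1 probes gave smaller differences of 4.74, 3.85 and 3.35, all called over all probes. In the BMDM control they read 7.04, 6.81 and 6.23, nearer background than the probe used. H2-Aa, the I-A α chain, stood at 10.49 and 10.53 in EPM, at 6.15 and 6.18 in BMDM and at 14.94 and 15.02 in B cells. The BMDM values were not well above background, so the H2-Aa level was at least 20.3-fold higher in EPM than in BMDM (limma adjusted p = 3.72e-17). H2-Eb1 read 10.69 and 10.87 in EPM, 7.26 and 7.45 in BMDM and 15.51 and 15.68 in B cells, a 10.7-fold difference between EPM and BMDM (3.42, SE 0.08, limma adjusted p = 3.47e-17). Its probe carries the accession of an mRNA described as an I-A β chain. The array places it at chr17:33922800-33923261 (mm8), away from the H2-Ab1 probes that have coordinates. Which β transcript it reads was not tested and is uncertain.

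Cd74 followed the chains. Its level was 12.40 and 12.67 in EPM, 8.08 and 8.36 in BMDM and 16.61 and 16.84 in B cells, which is 19.9-fold higher in EPM than in BMDM (4.31, SE 0.13, limma adjusted p = 1.87e-15). The genes of the peptide exchange factor differed little between the macrophages. H2-DMa stood at 9.47 and 9.45 in EPM against 9.12 and 9.14 in BMDM, a 1.26-fold difference (limma adjusted p = 0.00293), and H2-DMb1 at 11.50 and 11.48 against 11.15 and 11.25, a 1.22-fold difference (limma adjusted p = 0.00175). Another H2-DMb1 probe, whose annotation also lists H2-DMb2 transcripts, went the other way (-0.31, SE 0.11, limma adjusted p over all probes 0.0189), so the direction of that small difference depends on the probe. With the 12 h controls in place of the early ones, neither H2-DMa (-0.0042) nor H2-DMb1 (-0.15) was called.

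H2-DMb2 and H2-Ob were not well above background in any of the 16 macrophage channels, with levels of 5.89 to 6.13 and 5.88 to 6.14. H2-Oa was near background in both macrophages, at 6.46 and 6.44 in EPM and 6.54 and 6.59 in BMDM, and did not pass the test between them (-0.12, SE 0.05, limma adjusted p = 0.0625). Thus 6 of the 9 genes were higher in the early control of EPM than in that of BMDM and none lower, where 28.5% of all genes tested were higher and 29.3% lower. The median difference of the 9 was 0.33, against -0.01 over all genes tested. With the 12 h controls 4 of the 9 were higher (H2-Aa, H2-Ab1, H2-Eb1 and Cd74) and H2-Oa was lower in EPM (-0.18, limma adjusted p = 0.0073).

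In B cells the H2-DO genes stood out from macrophages by wide margins. The H2-Oa level was 13.62 and 13.58, or 142-fold above EPM and 131-fold above BMDM, and the H2-Ob level was 11.62 and 11.78, at least 49.5-fold above either. On the log2 scale the second H2-Oa probe gave smaller gaps, 6.30 against EPM and 6.24 against BMDM. The H2-Oa probe used gave 7.15 and 7.03. H2-DMb2 read 10.45 and 10.56 and was at least 22.5-fold above EPM and at least 21.5-fold above BMDM. With the probes used, the chains and Cd74 were 14.4-fold (H2-Ab1) to 28.2-fold (H2-Eb1) above EPM. Against BMDM they were 302-fold (H2-Eb1), 362-fold (Cd74) and 516-fold (H2-Ab1) higher, and H2-Aa at least 452-fold. The further H2-Ab1 probes gave 4.65, 4.70 and 4.80 on the log2 scale against EPM, where the probe used gave 3.85. Against BMDM they gave 9.39, 8.55 and 8.14, where the probe used gave 9.01. H2-DMa and H2-DMb1 showed the smallest gaps, 7.13-fold and 6.82-fold against EPM and 8.98-fold and 8.32-fold against BMDM. All 9 genes were called higher in B cells in both comparisons, where 38.5% of all genes tested were higher and 38.6% lower against EPM, and 37.5% higher and 39.1% lower against BMDM. The order of cell types was B cells, EPM, BMDM for H2-Aa, H2-Ab1, H2-Eb1 and Cd74, with either set of controls. For the other 5 genes B cells stood first and the order of EPM and BMDM was not settled, since H2-DMa and H2-DMb1 were called with the early controls alone, H2-Oa with the 12 h controls alone, and H2-Ob and H2-DMb2 with neither. In a population measured as a whole, fewer cells with a transcript and less of it per cell cannot be told apart.

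**Figure D1:**
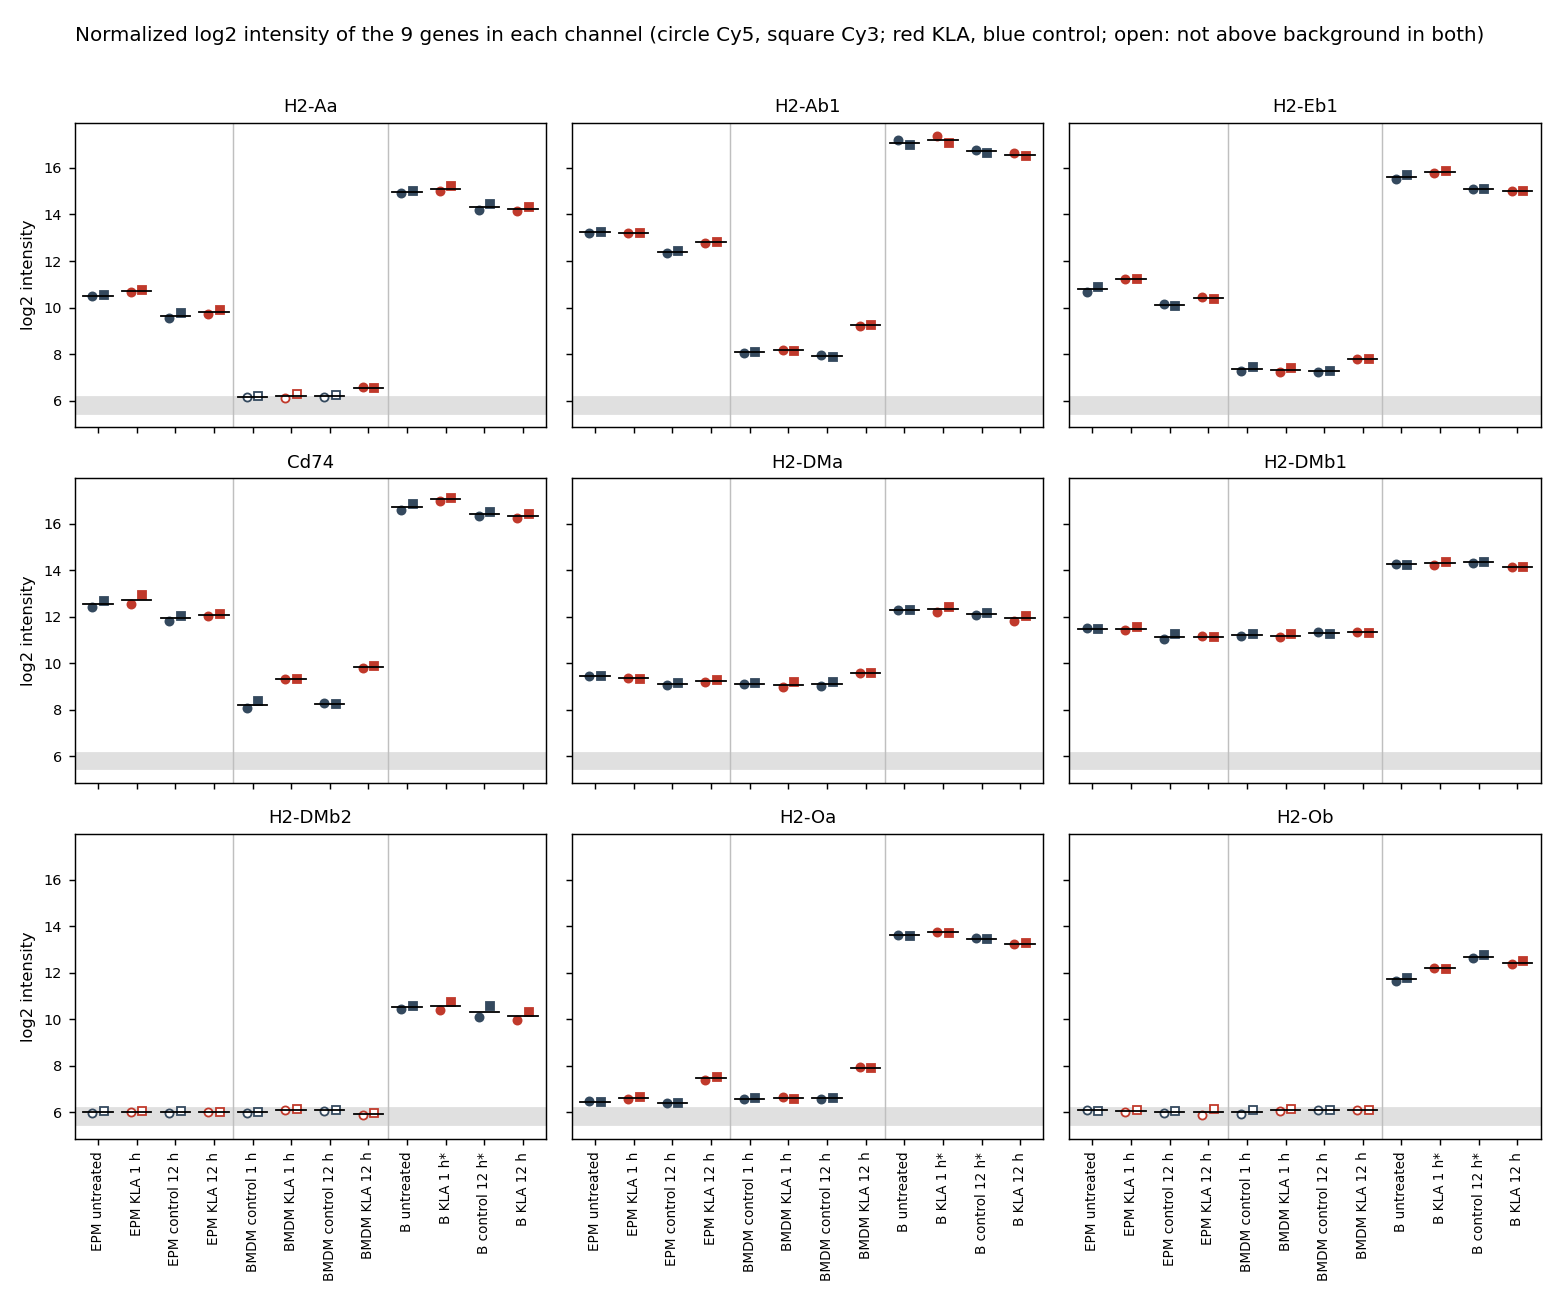
Normalized log2 intensity of each gene in the Cy5 (circle) and Cy3 (square) channel of the 12 conditions, with KLA in red and controls in dark blue; open symbols are conditions not well above background in both channels, the grey band runs from 5.44 to 6.16, the range of the lowest signal well above background over the 24 channels, and asterisks mark the 2 B cell arrays whose labels are in conflict. All 9 genes stand highest in B cells, H2-DMb2 and H2-Ob lie in the background in macrophages, and H2-Oa rises from near the band with KLA at 12 h in both macrophages.

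The response of the class II genes to KLA was strongest in BMDM at 12 h, where 6 of the 9 rose and none fell. By comparison, 28.6% of all genes tested were called higher and 36.3% lower, and the median change was 0.45 over the 9 genes and -0.03 over all genes tested. Cd74 went from 8.28 and 8.24 in the 12 h control to 9.80 and 9.86 with KLA, a 2.97-fold increase (1.57, SE 0.13, limma adjusted p = 3.45e-09). H2-Oa went from 6.58 and 6.59 to 7.95 and 7.87, a 2.51-fold increase (1.33, SE 0.05, limma adjusted p = 9.72e-14), and H2-Ab1 from 7.98 and 7.87 to 9.22 and 9.24, a 2.47-fold increase (1.30, SE 0.08, limma adjusted p = 6.17e-11). In each of these 3 genes both KLA channels lay above both control channels by more than 1 log2 unit. With the array means as samples and both BMDM controls pooled, 2 of the 6 calls were left, Cd74 (limma adjusted p = 0.0172) and H2-Oa (limma adjusted p = 0.00362), and H2-Ab1 was 1.23 (limma adjusted p = 0.0802).

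The remaining increases in BMDM at 12 h were smaller. H2-Eb1 rose 1.44-fold, from 7.23 and 7.27 to 7.77 and 7.79 (limma adjusted p = 7.7e-06), and H2-DMa 1.37-fold, from 9.04 and 9.19 to 9.57 and 9.57 (limma adjusted p = 0.000159), a change that was 0.13 and not called without normalization between arrays. H2-Aa was well above background in both channels only here, going from 6.15 and 6.22 to 6.57 and 6.52, which is at least 1.28-fold (limma adjusted p = 0.00367). H2-DMb1 read 11.35 and 11.25 in the control and 11.35 and 11.32 with KLA, a difference of 0.04 with a 95% interval of -0.11 to 0.19. H2-DMb2 and H2-Ob stayed within the background in both conditions.

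At 1 h in BMDM only Cd74 among the 9 genes was called. It stood at 8.08 and 8.36 in the control and at 9.32 and 9.33 with KLA, a 2.15-fold increase (1.10, SE 0.13, limma adjusted p = 2.63e-06). Of all genes tested 11% were called higher and 17.6% lower at that time. With the array means as samples the Cd74 change was 1.08 and not called (limma adjusted p = 0.286). The other 8 genes differed by -0.04 to 0.11, and their adjusted p ran from 0.445 to 0.937. From 1 h to 12 h the change with KLA grew by 1.23 in H2-Ab1 (limma adjusted p = 3.82e-08), by 1.29 in H2-Oa (5.55e-11), by 0.56 in H2-Eb1 (0.000279), by 0.49 in H2-DMa (0.00224) and by 0.47 in Cd74 (0.036), so that 5 of the 9 differed between the times where 24.5% of all genes tested grew. The growth of Cd74 was lost in 7 of the 8 fits that left out 1 channel, with adjusted p between 0.0148 and 0.171 over the 8. With the dye as a replicate block the growth of H2-Aa was called too (0.31, limma adjusted p = 0.00456).

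In EPM 3 of the 9 genes rose at 12 h and none fell, against 19.6% of all genes tested called higher and 34.3% lower. The median change was 0.13 over the 9 and -0.06 over all genes tested. H2-Oa led with a 2.06-fold increase, from 6.41 and 6.40 to 7.39 and 7.51 (1.04, SE 0.05, limma adjusted p = 4.71e-12). H2-Ab1 went from 12.36 and 12.42 to 12.79 and 12.80, a 1.33-fold increase (limma adjusted p = 0.000268), and H2-Eb1 from 10.14 and 10.06 to 10.44 and 10.35, a 1.23-fold increase (limma adjusted p = 0.003). For both the KLA channels lay above those of the 12 h control but below those of untreated EPM. When the early and 12 h control arrays were pooled as the controls of EPM, the changes of H2-Ab1 and H2-Eb1 were -0.02 and -0.04 and neither was called.

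The other genes were not called in EPM at 12 h. H2-Aa read 9.53 and 9.76 in the control and 9.72 and 9.91 with KLA (0.17, 95% interval -0.04 to 0.38, limma adjusted p = 0.155), and Cd74 read 11.83 and 12.04 against 12.02 and 12.11 (0.13, interval -0.14 to 0.40, limma adjusted p = 0.427). The channels of the groups overlapped for both. With the dye as a replicate block H2-Aa was called (limma adjusted p = 0.0244).

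At 1 h in EPM the calls were H2-Eb1 and H2-Oa, where 9.39% of all genes tested were higher and 19.7% lower. H2-Eb1 went from 10.69 and 10.87 to 11.24 and 11.23, a 1.38-fold increase (0.46, SE 0.08, limma adjusted p = 0.000154). On the scanner software's own signal it was 0.19 at 1 h and 0.22 at 12 h, and neither was called. H2-Oa went from 6.46 and 6.44 to 6.57 and 6.63 (0.15, SE 0.05, limma adjusted p = 0.0351), a call that was lost without any 1 of its 4 channels (adjusted p 0.0575 to 0.201). With the dye as a replicate block 4 genes were called, H2-Aa (0.20, limma adjusted p = 0.018) and Cd74 (0.21, limma adjusted p = 0.0342) in addition. Without the block, leaving out 1 channel moved the Cd74 change between 0.0046 and 0.41 (limma adjusted p 0.0454 to 0.987). Between 1 h and 12 h the change grew by 0.44 in H2-Ab1 (limma adjusted p = 0.00435) and by 0.89 in H2-Oa (1.41e-08), 2 of the 9 genes where 19.4% of all genes tested grew. The further H2-Ab1 probes gave 0.33, 0.30 and 0.32 (limma adjusted p over all probes 0.196, 0.0757 and 0.0233). The mean H2-Ab1 level with KLA was 13.21 at 1 h and 12.80 at 12 h, while the control went from 13.24 to 12.39.

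**Figure D2:**
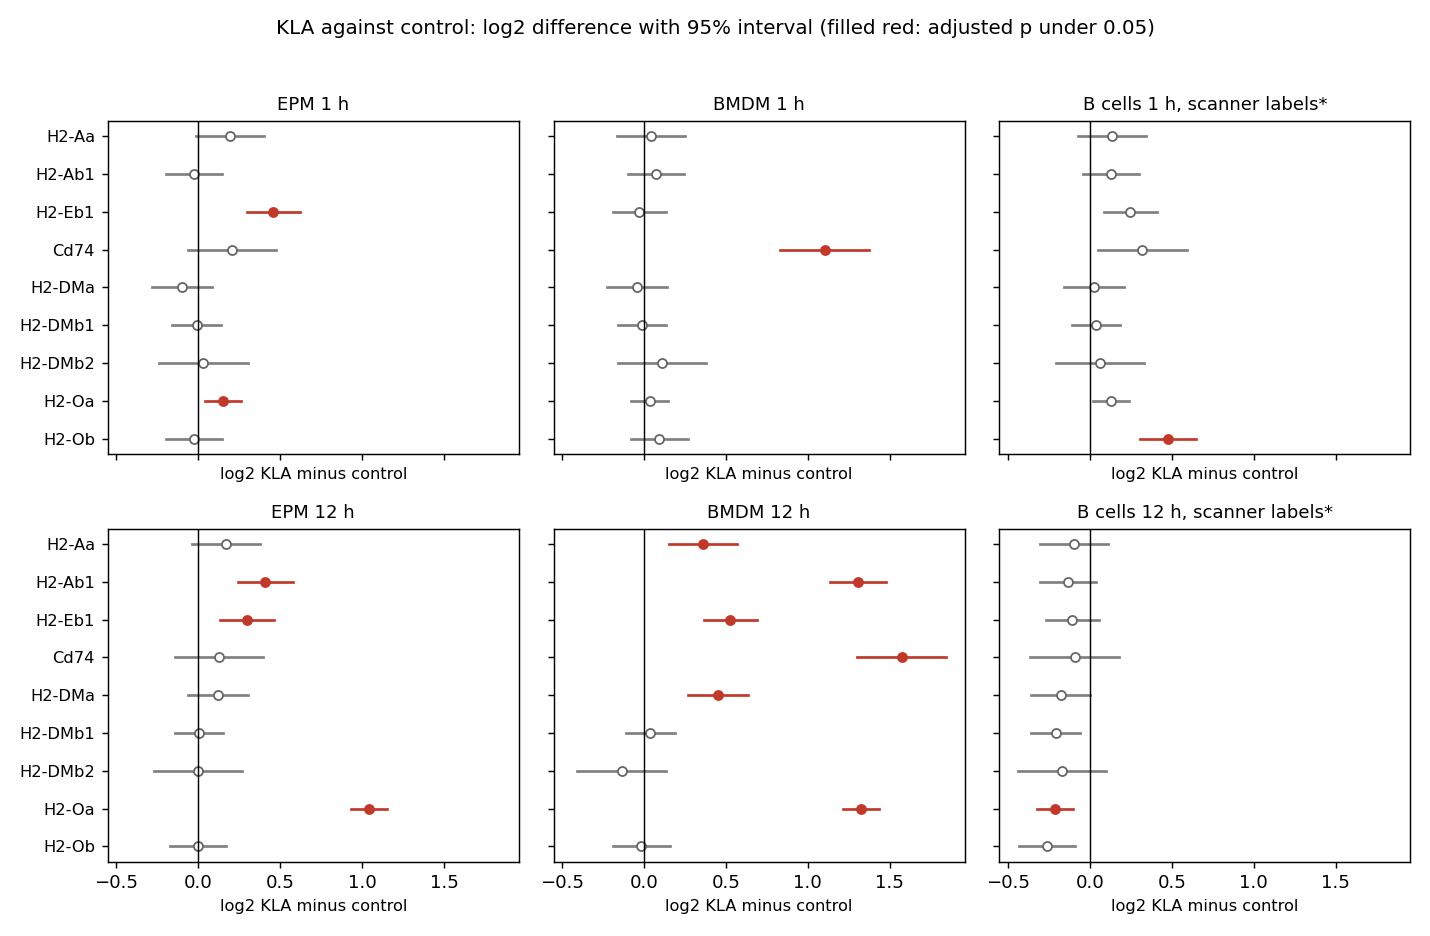
Difference of log2 intensity, KLA minus the same-time control, with its 95% interval for the 9 genes in 6 comparisons (n = 2 channels per condition; filled red points have a limma adjusted p under 0.05, and the B cell panels use the scanner labels). The largest changes are Cd74 (1.57), H2-Oa (1.33) and H2-Ab1 (1.30) in BMDM at 12 h, and H2-Oa (1.04) leads in EPM at 12 h.

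The changes of EPM and BMDM were set against each other directly. At 12 h the change was smaller in EPM for Cd74 (difference of changes -1.44, SE 0.18, limma adjusted p = 3.19e-06), H2-Ab1 (-0.89, SE 0.11, limma adjusted p = 3.68e-06), H2-DMa (-0.33, SE 0.12, limma adjusted p = 0.034) and H2-Oa (-0.28, SE 0.07, limma adjusted p = 0.00423). These were 4 of the 9 genes, where 24.6% of all genes tested had a smaller and 23.2% a larger change in EPM. For H2-Oa the sign turned to 0.81 (limma adjusted p = 0.00109) on the background-subtracted signal of the scanner software, and for H2-DMa to 0.09 without normalization between arrays, so neither of these directions held in all settings. The probe mattered as well. The other 3 H2-Ab1 probes gave -0.48, -0.24 and -0.03, none of them called (limma adjusted p over all probes 0.0548, 0.153 and 0.869). In the BMDM 12 h control these probes read 6.96, 6.49 and 6.25, nearer background than the probe used (7.92). The part of their lower level in the smaller differences was not tested. The second H2-Oa probe gave 0.19 (limma adjusted p over all probes 0.113). With the array means as samples no gene was called between EPM and BMDM at either time, with Cd74 at -1.76 at 12 h (limma adjusted p = 0.14). The H2-DMa call was also lost in 5 of the 8 fits that left out 1 channel (adjusted p 0.0218 to 0.142). H2-Eb1 was not called without the dye block (-0.23, limma adjusted p = 0.0932) and was called with it (limma adjusted p = 0.0424). At 1 h the change was smaller in EPM for Cd74 (-0.90, SE 0.18, limma adjusted p = 0.00278) and larger for H2-Eb1 (0.49, SE 0.11, limma adjusted p = 0.00611), where 5.49% of all genes tested had a smaller and 4.07% a larger change.

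The level of the controls themselves moved in EPM. From untreated cells to the 12 h control 6 of the 9 genes fell and none rose, against 8.31% of all genes tested that fell. H2-Aa dropped from 10.49 and 10.53 to 9.53 and 9.76 (-0.86, SE 0.10, limma adjusted p = 4.35e-06), H2-Ab1 from 13.23 and 13.25 to 12.36 and 12.42 (-0.85, SE 0.08, limma adjusted p = 4.71e-07), H2-Eb1 by 0.68 (limma adjusted p = 4.01e-06) and Cd74 by 0.60 (limma adjusted p = 0.00252). H2-DMa and H2-DMb1 each fell by 0.35 (limma adjusted p = 0.00752 and 0.00153), while the second H2-DMb1 probe read -0.06 (limma adjusted p over all probes 0.774). The H2-DMa call was lost in 2 of the 4 fits that left out 1 channel (adjusted p 0.0194 to 0.0763). For each of these 6 genes, with the probe used, the fall was larger in size than the change with KLA in EPM at either time. Time in culture, solvent and array cannot be told apart in this comparison. In BMDM, where both controls were DMSO, none of the 9 was called (13.2% of all genes tested rose and 9.99% fell), with limma adjusted p from 0.196 to 0.95. None of the 9 had an unadjusted p under 0.05 in BMDM, and 1 of the 9 was called when the channels were quantile normalized together or when the scanner software's own signal was used. Among the further probes in BMDM, 1 of H2-Ab1 was lower (-0.32, limma adjusted p over all probes 0.0172) and the second of H2-Oa higher (0.23, limma adjusted p over all probes 0.0214) in the 12 h control.

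**Figure D3:**
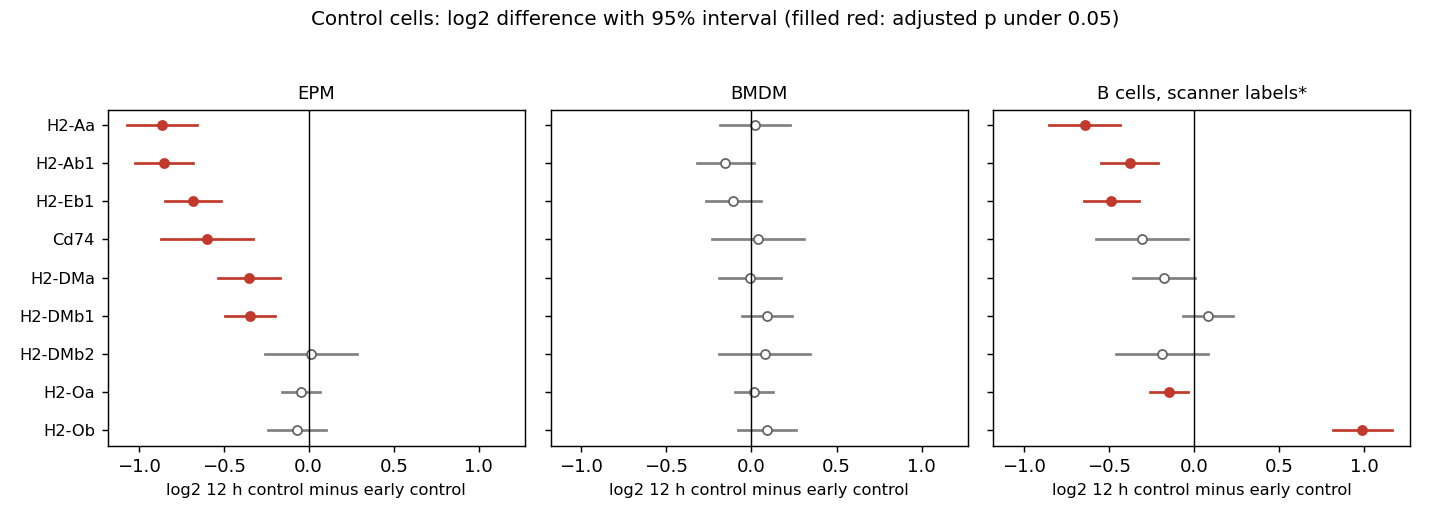
Difference of log2 intensity between the 12 h control and the early control in each cell type, with its 95% interval (n = 2 channels per condition; filled red points have a limma adjusted p under 0.05; B cells with the scanner labels, which are in conflict for the 12 h control). In EPM 6 genes lie below 0, from -0.86 for H2-Aa to -0.35 for H2-DMb1, and in BMDM the intervals of all 9 genes include 0.

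In B cells the labels of the 2 arrays in conflict set the sign of the change in most class II genes at 1 h. At 12 h the sign depended on them in H2-Ob alone (-0.26 with the scanner labels, 0.25 with the labels exchanged). In the other genes they altered the size of the 12 h change and the calls. With the scanner labels H2-Ob was called higher with KLA at 1 h, from 11.62 and 11.78 to 12.20 and 12.15 (0.48, SE 0.08, limma adjusted p = 0.00146), and no other gene of the 9, where 2.72% of all genes tested were higher and 2.45% lower. The median change was 0.13 over the 9 and 0.01 over all genes tested. At 12 h H2-Oa was called lower, from 13.47 and 13.43 to 13.22 and 13.25 (-0.21, SE 0.05, limma adjusted p = 0.0191), where 2.81% of all genes tested were higher and 2.48% lower. That call was lost in 3 of the 4 fits that left out 1 channel (adjusted p 0.0499 to 0.148). The median change was -0.17 over the 9 and -0.01 over all genes tested. With the dye as a replicate block H2-Eb1 and Cd74 were also called higher at 1 h (limma adjusted p = 0.0165 and 0.00688), and H2-DMb1 and H2-Ob lower at 12 h (limma adjusted p = 0.0349 and 0.00886).

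With these labels the 12 h control stood apart from untreated B cells. H2-Aa read 14.94 and 15.02 in untreated cells and 14.20 and 14.47 in the 12 h control (-0.65, limma adjusted p = 2.39e-05), H2-Eb1 fell by 0.49 (limma adjusted p = 3.48e-05), H2-Ab1 by 0.38 (limma adjusted p = 0.000662) and H2-Oa by 0.15 (limma adjusted p = 0.0253). The H2-Oa call was lost in 2 of the 4 fits that left out 1 channel (adjusted p 0.0445 to 0.14). The second H2-Oa probe read 0.03 (limma adjusted p over all probes 0.722). The further H2-Ab1 probes read -0.78, -0.89 and -1.08, larger falls than that of the probe used. H2-Ob rose from 11.62 and 11.78 to 12.61 and 12.77 (0.99, SE 0.08, limma adjusted p = 1.24e-08). This made 4 genes lower and 1 higher, where 25% of all genes tested were higher and 22.4% lower. The dye block added H2-DMa and Cd74 to the lower genes (limma adjusted p = 0.0253 and 0.00141).

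With the labels of the 2 arrays exchanged, as the authors' table has them, the same values became a change with KLA. At 1 h H2-Aa (-0.65), H2-Eb1 (-0.49), H2-Ab1 (-0.38) and H2-Oa (-0.15) were lower and H2-Ob (0.99) higher, 4 of the 9 lower where 22.4% of all genes tested were lower. For the same arrays the further H2-Ab1 probes gave -0.78, -0.89 and -1.08, and the second H2-Oa probe 0.03. At 12 h 7 of the 9 were lower where 24.4% of all genes tested were lower, from H2-Aa (-0.88, limma adjusted p = 6.58e-07) and H2-Eb1 (-0.84, limma adjusted p = 5.09e-08) to H2-DMa (-0.38, limma adjusted p = 0.00129), while H2-Ob was higher (0.25, limma adjusted p = 0.0172). Cd74 was lower by 0.72 (limma adjusted p = 0.000126). The 12 h control then differed from untreated cells in H2-Ob alone (0.48, limma adjusted p = 0.00146).

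A comparison that used neither array set KLA for 12 h against untreated B cells. There 7 of the 9 genes were lower, where 22.2% of all genes tested were lower. These were H2-Aa (-0.74), H2-Eb1 (-0.60), H2-Ab1 (-0.51), Cd74 (-0.40), and H2-DMa, H2-DMb2 and H2-Oa (each -0.36). H2-Ob was higher by 0.72 (SE 0.08, limma adjusted p = 1.95e-06). H2-DMb1 was not called (-0.13, limma adjusted p = 0.159). H2-Ob read 11.62 and 11.78 in untreated B cells and 12.38 and 12.48 with KLA for 12 h, while H2-Aa read 14.94 and 15.02 against 14.15 and 14.33. In this comparison treatment and time in culture cannot be told apart. The difference of the KLA changes between 12 h and 1 h was the same under either labelling, -0.74 for H2-Ob (limma adjusted p = 0.000368) and -0.34 for H2-Oa (limma adjusted p = 0.00689), 2 of the 9 genes where 3.94% of all genes tested were lower. This sameness is by construction, as the 2 disputed arrays enter the difference with the same sign. With the dye block H2-Eb1 and Cd74 were called in addition (limma adjusted p = 0.0129 and 0.0109).

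Genes with more than 1 probe allowed the macrophage results to be read again within a gene. In mm8 coordinates, which are those of the array files, the H2-Ab1 probe used lies at chr17:33877309-33877368, with others at chr17:33875638-33875697 and chr17:33872973-33873032 and a last probe without coordinates. The single probes of H2-Eb1, H2-DMa, H2-DMb2 and H2-Ob lie at chr17:33922800-33923261, chr17:33747809-33748372, chr17:33758478-33758538 and chr17:33852080-33852311, and the Cd74 probe lies on chromosome 18. The probes carry mRNA accessions, and the array files name no exon for them. All 4 H2-Ab1 probes rose with KLA at 12 h in EPM, by 0.41 to 0.50, and in BMDM, by 1.30, 0.98, 0.72 and 0.44. In the BMDM 12 h control these probes read 7.92, 6.96, 6.49 and 6.25 in the same order, so the smaller changes came from probes nearer background. Both H2-Oa probes, at chr17:33705542-33705601 and chr17:33705473-33705533, rose in EPM (1.04 and 0.96) and in BMDM (1.33 and 0.77). Both H2-Aa probes, at chr17:33892680-33892739 and chr17:33892022-33892081, rose by 0.36 in BMDM and were not called in EPM (0.17 and 0.23). Neither H2-DMb1 probe, at chr17:33767055-33767114 and chr17:33766456-33766515, was called in either macrophage. Across all probes 19.7% were called higher in EPM and 27.9% in BMDM at 12 h, and at that time the probes of H2-Ab1, H2-Oa and H2-Aa shared a direction, while those of H2-Ab1 and H2-Oa differed in size in BMDM.

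**Figure D4:**
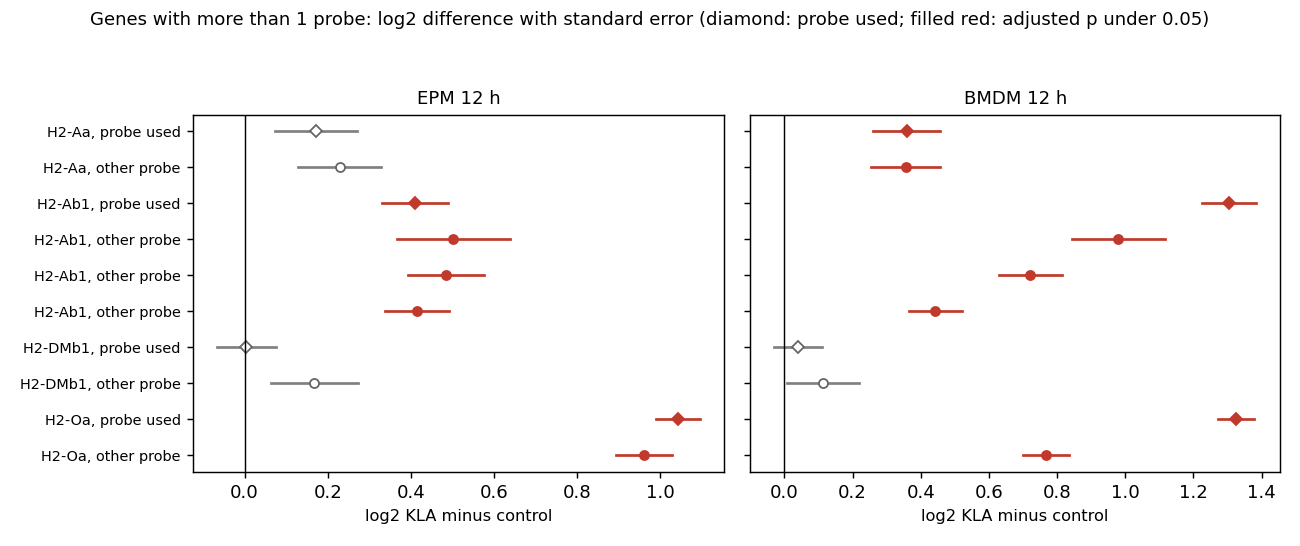
Difference of log2 intensity, KLA minus control at 12 h, for each probe of H2-Aa, H2-Ab1, H2-DMb1 and H2-Oa in EPM and BMDM, with its standard error (n = 2 channels per condition). The 4 H2-Ab1 probes run from 0.44 to 1.30 in BMDM and from 0.41 to 0.50 in EPM, and the H2-DMb1 probes lie between 0.00 and 0.17.

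Ciita, the coactivator of these promoters, was measured by a probe with its older name C2ta. Its level in EPM was 6.66 and 6.70 in untreated cells, 6.76 and 6.76 with KLA for 1 h, 6.32 and 6.54 in the 12 h control and 7.46 and 7.71 with KLA for 12 h. The 12 h change was 1.16 (SE 0.08, limma adjusted p = 6.76e-10), with both KLA channels above all other EPM channels. In BMDM all 8 channels lay between 6.18 and 6.40, and the changes of Ciita were 0.10 at 1 h (limma adjusted p = 0.39) and 0.13 at 12 h (limma adjusted p = 0.183). These BMDM levels lay just above the range of the lowest signals well above background (5.44 to 6.16). The size of a change so near background is uncertain. The difference of the 12 h changes of Ciita between EPM and BMDM was 1.03 (SE 0.12, limma adjusted p = 7.76e-07). Its sign was opposite to that of Cd74 (-1.44) and of the H2-Ab1 probe used (-0.89). The other H2-Ab1 probes gave -0.48, -0.24 and -0.03, none of them called. The part of the low BMDM level in the Ciita difference was not tested. In B cells Ciita stood at 12.24 and 12.44 in untreated cells, 50.6-fold above EPM and 68.4-fold above BMDM, while EPM exceeded BMDM by 0.43 (limma adjusted p = 0.000162). Ciita was not called for a change with KLA in B cells with the scanner labels, and with the labels exchanged it was higher by 0.74 at 1 h (limma adjusted p = 5.11e-07) and by 0.68 at 12 h (limma adjusted p = 1.36e-06).

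Other regulators of class II transcription moved in both directions. Of the 14 genes listed, 4 rose and 3 fell in EPM at 1 h, 6 and 4 at 12 h, 4 and 4 in BMDM at 1 h and 5 and 4 at 12 h. Over all genes tested 9.39% were called higher and 19.7% lower in EPM at 1 h, 19.6% and 34.3% at 12 h, 11% and 17.6% in BMDM at 1 h, and 28.6% and 36.3% at 12 h. In B cells none of the 14 was called with the scanner labels. With the labels exchanged the 1 h comparison called 11 higher and 2 lower (25% and 22.4% of all genes tested) and the 12 h comparison 10 higher and 2 lower (24.8% and 24.4%). Of these, Rfxank, an RFX subunit, had the largest rise (1.62 and 1.51) and Irf4 the largest fall (-1.11 and -0.90). Irf1, an interferon regulatory factor, rose by 2.49 and 3.73 in EPM and by 2.74 and 2.31 in BMDM at 1 h and 12 h. Prdm1, which encodes the repressor Blimp-1, rose by 2.28 in EPM and 2.14 in BMDM at 1 h. Irf8 fell by 0.98 and 0.85 in EPM. Nfya, an NF-Y subunit, fell by 0.58 in EPM at 1 h, Rfxap, an RFX subunit, by 0.59 and Irf8 by 0.53 in BMDM at 1 h, Creb1 by 0.56 in EPM and 0.66 in BMDM at 12 h, and Nfyb by 0.50 in BMDM at 12 h. The list medians were 0.02 and 0.17 in EPM and 0.08 and 0.06 in BMDM, against -0.05, -0.06, -0.03 and -0.03 over all genes tested. Basally 6 of the 14 were higher and 4 lower in EPM than in BMDM (28.5% and 29.3% of all genes tested), with Rfxank (0.52) and Ciita at the top and Sfpi1 (-1.02) and Irf1 (-0.40) at the bottom. In B cells 8 were higher and 5 lower than in EPM, and 10 higher and 3 lower than in BMDM, against 38.5% and 38.6%, and 37.5% and 39.1%, of all genes tested. Beside Ciita, Irf4, a factor of B cell and plasma cell differentiation, had the largest excess in B cells (5.60 over EPM and 5.88 over BMDM), while Nfya (-1.27 against EPM) and Sfpi1 (-2.24 against BMDM) were lower.

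Among genes that prepare peptides in endosomes, as among all genes tested, more fell than rose in both macrophages at 12 h. Of the 9 listed 8 were tested, as Sppl2a had no probe of that name. Of these, 1 rose and 3 fell in EPM at 1 h, 0 and 5 at 12 h, 1 and 1 in BMDM at 1 h, and 1 and 5 at 12 h, with list medians of -0.16, -0.40, -0.07 and -0.45, against -0.05, -0.06, -0.03 and -0.03 over all genes tested. The shares of all genes tested that were lower were 19.7%, 34.3%, 17.6% and 36.3%. None was called in B cells with the scanner labels, and with the labels exchanged 3 were higher and 3 lower at each time, led by Ctsd (1.20 and 0.77) and Ifi30 (-1.19 and -1.27). Lgmn, an asparaginyl endopeptidase, fell by 1.23 and Ctsd, the protease cathepsin D, by 0.84 in EPM at 12 h. Ifi30, a thiol reductase of the endosome, fell by 0.82 and Ctsl, cathepsin L, by 0.49 in BMDM at 12 h, where Ctsz rose by 0.42. Ctss, the cathepsin that trims the invariant chain, rose by 0.64 in EPM at 1 h, when Cst3, a cathepsin inhibitor, fell by 0.46 and Ctsz by 0.40. At 1 h in BMDM Ctsb rose by 0.24 and Cst3 fell by 0.22. Basally 5 of the 8 were higher in EPM than in BMDM and none lower, led by Ifi30 (2.11) and Ctsz (1.07). Over all genes tested 28.5% were higher and 29.3% lower. Of the 8, 7 were lower in B cells than in EPM and 7 lower and 1 higher than in BMDM. The shares of all genes tested were 38.5% higher and 38.6% lower against EPM, and 37.5% and 39.1% against BMDM. Ctsd (-6.73 and -6.52) and Ctsl (-6.18 and -6.22) had the widest gaps, and Ifi30 was the gene higher than in BMDM (1.98).

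Genes that set the amount of class II at the surface formed the last group of 5. In EPM 1 rose and 3 fell at 1 h, and 2 and 3 at 12 h. In BMDM 1 rose and 2 fell at 1 h, and 1 and 3 at 12 h. Of all genes tested 9.39% were higher and 19.7% lower in EPM at 1 h, 19.6% and 34.3% at 12 h, 11% and 17.6% in BMDM at 1 h, and 28.6% and 36.3% at 12 h. March1, a ubiquitin ligase that removes class II from the surface, fell by 0.40 in EPM at 1 h and by 0.22 in BMDM, then rose by 1.35 in EPM and 2.001 in BMDM at 12 h. Cd83, which opposes March1, rose by 2.87 in EPM and 2.78 in BMDM at 1 h and stood at 0.24 and -0.16 at 12 h, both called. The tetraspanin Cd9, which associates with class II, fell by 0.28 in EPM at 1 h, and by 1.38 and 1.22 in EPM and BMDM at 12 h. March8 fell by 0.80 in EPM at 12 h, and Cd81 by 0.34 at 1 h and 1.57 at 12 h in BMDM. The medians were -0.24 and -0.56 in EPM and -0.16 and -0.16 in BMDM, against -0.05, -0.06, -0.03 and -0.03 over all genes tested. Basally Cd9 was higher (3.29) and Cd81 (-2.53), March1 (-0.60) and Cd83 lower in EPM than in BMDM. B cells exceeded EPM most in Cd83 (2.63) and Cd81 (2.33) and BMDM most in Cd83 (2.26) and March1 (1.17), and stood below EPM in March8 (-4.71) and Cd9 (-3.55) and below BMDM in March8 (-4.77) and Cd9 (-0.26). In B cells with the scanner labels Cd83 alone was called for a change with KLA, at 12 h (0.27, limma adjusted p = 0.0165). With the labels exchanged March1 (1.25 and 1.33) and Cd81 (0.59 and 0.60) were higher and Cd83 (-1.43 and -1.21) and Cd9 (-1.43 and -1.06) lower at 1 h and 12 h.

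**Figure D5:**
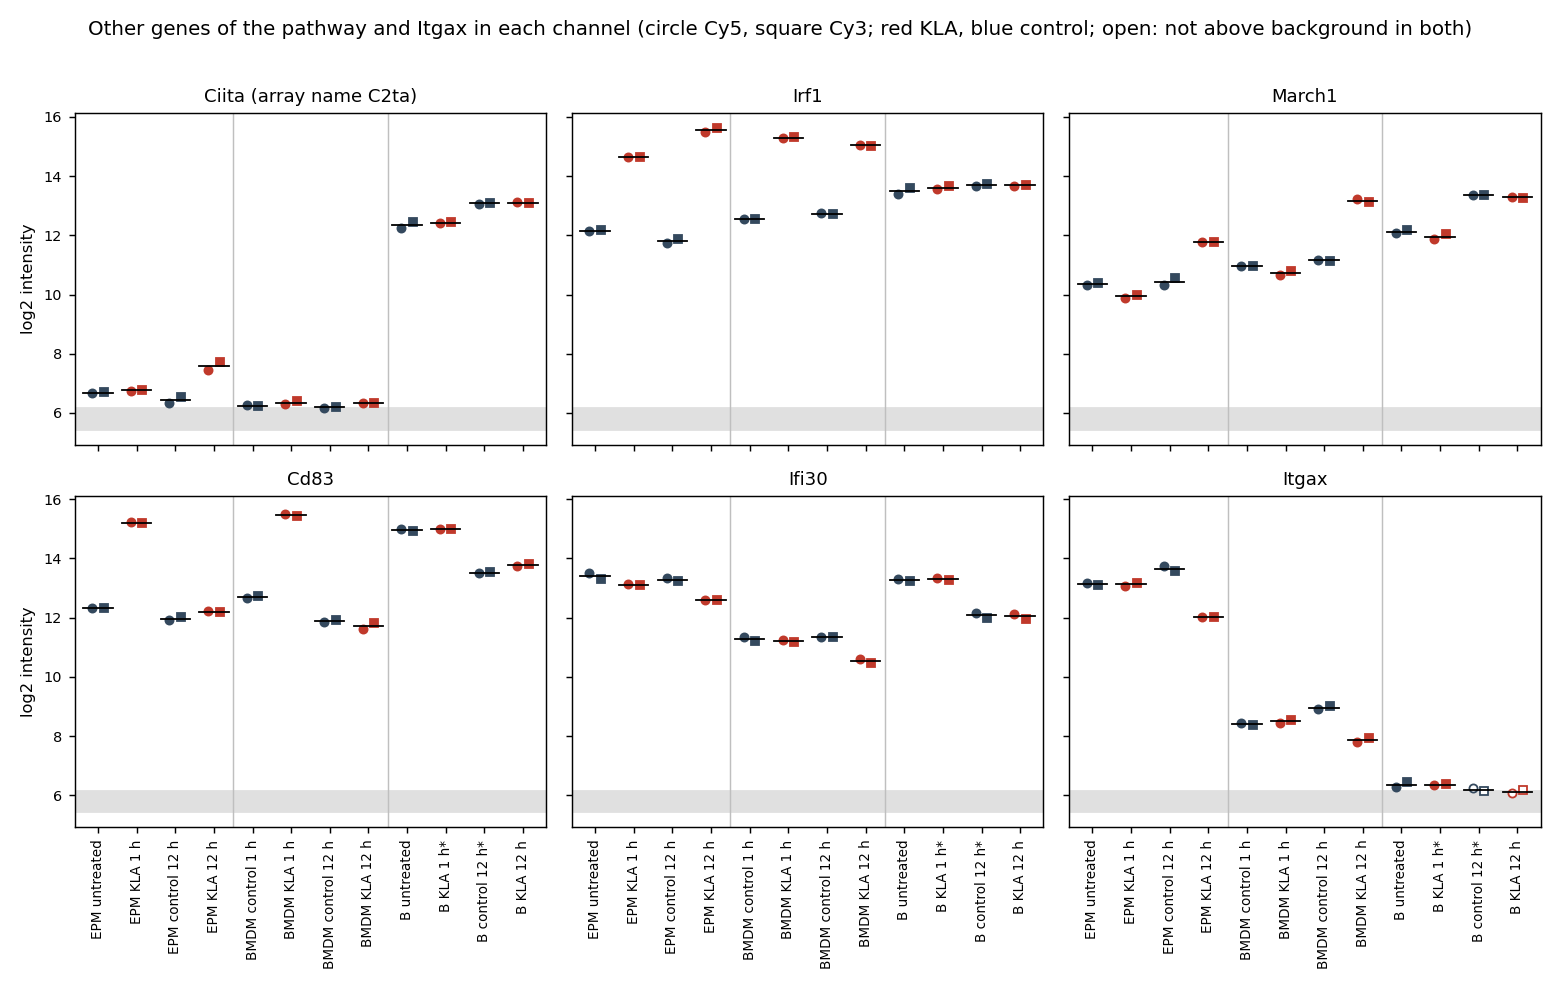
Normalized log2 intensity of Ciita, Irf1, March1, Cd83, Ifi30 and Itgax in the Cy5 (circle) and Cy3 (square) channel of each condition, with KLA in red and controls in dark blue; open symbols are conditions not well above background in both channels, the grey band runs from 5.44 to 6.16, and asterisks mark the B cell arrays in conflict. Ciita rises with KLA in EPM at 12 h (7.46 and 7.71) and stays at 6.18 to 6.40 in BMDM, while March1 rises at 12 h in both.

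Markers of other cells were read beside these results. Of 9 B cell markers 4 to 6 were above background in both channels of a macrophage condition. Their summed linear intensity was 1420 to 2666 in EPM and 2115 to 4418 in BMDM, against 212634 to 263164 in B cells. In the early controls it was 2355 and 2531 in EPM and 4110 and 4418 in BMDM. Cr2 and Fcer2a were not well above background in any macrophage channel. The sum came mostly from Cd22 in EPM (10.80 in untreated cells) and Cd79b in BMDM (11.69 in the early control). The sums thus rest on different genes and do not compare B cell content between the macrophages. All 8 macrophage markers were above background in every macrophage condition (sums of 256683 to 466102) against sums of 1091 to 2934 in B cells. Basally 5 of the 8 were lower and 1 higher in EPM than in BMDM (median -0.54), where 29.3% of all genes tested were lower and 28.5% higher. With KLA at 12 h 3 were higher and 4 lower in BMDM (median -0.13), and 3 and 3 in EPM (median -0.07). The shares of all genes tested were 28.6% higher and 36.3% lower in BMDM, and 19.6% and 34.3% in EPM. Of 5 dendritic cell markers tested, Itgax (4.73) and Ccr7 (1.16) were higher in EPM than in BMDM, against 28.5% of all genes tested. The list median was 0.18. The sum over 7 measured dendritic markers was 5163 to 14234 in EPM and 938 to 1296 in BMDM, and most of it in EPM was Itgax (CD11c), at 13.18 and 13.11 in untreated EPM, against 8.46 and 8.36 in BMDM. Flt3 stood at 6.42 to 6.75 in every macrophage channel, Zbtb46 at 7.26 in untreated EPM and 7.08 in the BMDM control, and Siglech and Cd209a were not above background.

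With KLA at 12 h the dendritic markers split, and their part in the class II results was not tested. Itgax fell by 1.63 in EPM (limma adjusted p = 1.21e-12) and by 1.09 in BMDM (limma adjusted p = 2.7e-10). Ccr7 went from 6.65 and 6.89 to 8.61 and 8.99 in EPM, and Zbtb46 went from 6.99 and 7.01 to 9.06 and 8.90 in BMDM. Summed intensity was 757 to 1166 for T cell markers over all conditions and 333 to 1368 for eosinophil markers. For neutrophil markers it was 822 to 1369 in EPM, 2426 to 4478 in BMDM and 340 to 385 in B cells. All 5 neutrophil markers tested were lower in EPM than in BMDM basally (median -1.70), against 29.3% of all genes tested. In BMDM 4 of the 5 were higher with KLA at 1 h (median 0.56), against 11% of all genes tested. At 12 h in BMDM 3 were higher and 1 lower (median 0.88), against 28.6% and 36.3% of all genes tested. There the sum went from 2479 and 2426 in the control to 4407 and 4147. The part of these markers in the class II results was not tested.

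Over the 12 condition means, the genes whose profile lay closest to the mean of H2-Aa, H2-Ab1, H2-Eb1 and Cd74 were Sh3yl1, Napsa, Cnih2, Krr1 and Mcrs1, with Pearson r of 0.984 to 0.989. The 12 points share slides within a cell type and are dominated by the gap between B cells and macrophages. Among the members outside this mean, r was 0.87 for H2-Oa and 0.90 for H2-DMa. Over the 8 macrophage conditions alone the closest genes were Birc1a, 1110033J19Rik, Itgb7, Btg3 and 4933428G09Rik, with r of 0.991 to 0.998, and the points again fall in a pair of slides. There H2-Oa had r = -0.10 and H2-DMa r = 0.36, both lower than over the 12 conditions.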

How the data were processed

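Total RNA of EPM, BMDM and resting splenic B cells was measured on 12 two-colour arrays (24 channels, 3 slides). The authors deposited Agilent scanner output, with the intensity of each spot in both channels and no normalization between arrays, and a table of their own normalized intensity values. The submitters' processing notes name Agilent Feature Extraction 9.5.3.1, and the file headers give mm8 for the probe positions. How the authors normalized their table is not given in the sources used here.

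The mean signal and median background of 43379 spots were corrected with normexp (offset 50), normalized within arrays by loess and between arrays by Aquantile, and read as single-channel log2 intensity in limma 3.58.1 (R 4.3.3). Outlier spots were set missing (131 values), spots of a probe were averaged, and the probe with the highest mean represented its gene. Genes whose probe passed the scanner's background test in neither or only 1 channel of every condition were dropped. The fit estimated 12 condition means, which left 12 residual degrees of freedom, and p-values were adjusted by Benjamini-Hochberg over 17345 genes (threshold 0.05, two-sided) or 30718 probes. With 2 channels per condition, the number of arrays limits the precision. A bound ("at least") sets the brighter group against, in each channel, the higher of the lowest signal well above background and the dim probe's own signal. The procedure was tested on simulated data.

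The named genes are the members, Ciita, and those past the threshold with the largest 2 changes in each direction per list. The members and lists were chosen with earlier results of these data known. Replicates share their dye across arrays: the difference between Cy5 and Cy3 correlated in all 66 pairs of arrays (r from 0.26 to 0.63), so the dye was tried as a replicate block. The authors' table, the exchanged B cell labels, other normalizations, filters and thresholds were alternatives, and the comparison without the 2 disputed arrays was chosen after seeing the data.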

Additional observations from a re-analysis of the deposited data

Results flagged for a closer look

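Of the tests of one KLA change against another, 15 passed the threshold (limma, Benjamini-Hochberg adjusted over 17345 genes). Between EPM and BMDM the change differed at 1 h by 0.49 in H2-Eb1, which was larger in EPM, and by -0.90 in Cd74, which was larger in BMDM. At 12 h the differences were -1.44 for Cd74, -0.89 for H2-Ab1, -0.33 for H2-DMa and -0.28 for H2-Oa, each a larger change in BMDM with the probe used. None of the other 3 H2-Ab1 probes was called (-0.48, -0.24 and -0.03), and these lay nearer background in BMDM than the probe used. The second H2-Oa probe had the opposite sign (0.19, not called).

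Between 12 h and 1 h the change was larger at 12 h in EPM by 0.44 for H2-Ab1 and 0.89 for H2-Oa. Of the further H2-Ab1 probes in EPM (0.33, 0.30 and 0.32) the last alone was called. In BMDM the change was larger at 12 h by 1.23 for H2-Ab1, 0.56 for H2-Eb1, 0.49 for H2-DMa, 1.29 for H2-Oa and 0.47 for Cd74. In B cells it was lower at 12 h by -0.34 for H2-Oa and -0.74 for H2-Ob, values that are by construction the same under either labelling of the 2 disputed arrays.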

How the results depend on the processing

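With 2 channels on 1 array per condition, the spread covers channels and not arrays, and array or slide effects cannot be told apart from conditions. Basal calls against B cells (9 and 9 genes) were kept in number under all alternatives run for them except the filter on all 24 channels, which left 6 genes to test. Leaving out 1 channel in turn gave 1 to 2 genes called in EPM at 1 h, 3 at 12 h, 1 and 6 in BMDM, 1 and 0 to 1 in B cells, 6, 9 and 9 for basal levels, 5 to 6, 0 and 5 to 6 for the controls, 2 and 3 to 4 between EPM and BMDM, and 2, 4 to 5 and 2 to 3 between times.

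With the dye as a replicate block 4 genes were called in EPM at 1 h, 3 in B cells at 1 h, 3 at 12 h and 4 between the times, 13 member calls were gained over all comparisons, and none was lost. The array means, with both controls of a cell type pooled as replicates, called 0 and 1 in EPM, 0 and 2 in BMDM, 0 and 0 in B cells, 0 and 0 between EPM and BMDM, and 1, 1 and 0 between times. There H2-Ab1 (-0.015) and H2-Eb1 (-0.042) in EPM at 12 h, H2-Ab1 between times in EPM (-0.42), H2-Ob in B cells at 1 h (-0.018) and H2-Ob between times in B cells (0.25) turned sign. The construction pools the EPM controls, which differed.

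The processed signal called 0 in EPM at 1 h, 0 and 0 in B cells, 1 in the BMDM controls, 1 between EPM and BMDM at 1 h and 0 between times in B cells, with H2-Oa at 0.030 in the B cell controls and at 0.81 between EPM and BMDM at 12 h. Without normalization between arrays the counts were 1 and 6 in EPM, 2 and 0 in B cells and 3 between times in BMDM, and H2-DMa (0.092) and H2-DMb1 (0.32) turned sign between EPM and BMDM at 12 h. Quantile normalization called 1 in the BMDM controls, and offset 16 called 0 in B cells at 12 h. The filter on all channels called 0 in B cells at 1 h, 3 in their controls and 1 between times. The mean of probes called 4 between times in B cells, and put H2-DMb1 at -0.011 between EPM and BMDM. Threshold 0.01 and a fit of each cell type alone both called 1 in EPM at 1 h and 0 in B cells at 12 h, and the latter 1 between times in B cells. With the 12 h controls H2-DMa was at -0.0042 and H2-DMb1 at -0.15 between EPM and BMDM.

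The authors' table called 1 in EPM at 1 h, 4 and 7 in B cells, 1 in the B cell controls and 1 between times. It put H2-Aa (-0.78), H2-Ab1 (-0.33) and H2-Eb1 (-0.52) lower in B cells at 1 h, and H2-Aa (0.21), H2-Ab1 (0.22), H2-Eb1 (0.30) and H2-Oa (0.19) above untreated cells in the 12 h control. The exchanged labels called 5, 8 and 1 there. H2-Aa (-0.65), H2-Ab1 (-0.38), H2-Eb1 (-0.49) and H2-Oa (-0.15) were lower at 1 h, H2-Ob higher at 12 h (0.25), and the control differences were 0.13, 0.13, 0.25 and 0.13 for H2-Aa, H2-Ab1, H2-Eb1 and H2-Oa. Without both arrays 8 were called at 12 h, with H2-Ob at 0.72. Where the construction does not show it, the cause was not tested.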
